A study of Mus musculus with 24 samples.

Results

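Progenitors sorted from the gonadal fat of female mice under the label FIP were compared with progenitors sorted from the inguinal fat of female mice under the label DPP4_pos. The comparison rests on 6 of the 24 RNA-seq libraries of the series, 3 of each group, and on every gene whose normalized value reached 10 in at least 3 of those 6 libraries, which left 12828 of 27179 genes. The series covers 8 groups of 3 libraries, 4 female and 4 male, in which cells expressing PDGFRb were taken by flow cytometry from adipose tissue of C57BL/6 mice, with FIP and APC groups from gonadal white fat and DPP4_pos and DPP4_neg groups from inguinal white fat. The sources used here state no genotype or treatment beyond the strain, and neither the animals' age, nor the sort gates behind the group names, nor whether replicates are separate animals. P-values are therefore relative to library-to-library variation, part or all of which could be technical. Depot and sort gate change together between the groups, so their contributions cannot be told apart.

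White fat holds perivascular and interstitial mesenchymal cells that carry PDGF receptors and from which new adipocytes form. In the inguinal depot, cells bearing the surface protease DPP4 lie in the connective tissue septa and are known as multipotent progenitors that can become committed preadipocytes. In the literature on mouse gonadal fat, FIP stands for fibro-inflammatory progenitors, PDGFRb-positive cells known for matrix and cytokine production and for poor adipocyte formation. Visceral and subcutaneous fat have separate developmental origins, and their stromal cells keep different sets of homeobox and other patterning genes into adult life.

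The 3 FIP libraries held 13141218 to 15781178 assigned reads and the 3 DPP4_pos libraries 14394801 to 18221692. Libraries of one group correlated at 0.992 to 0.995 (FIP) and 0.990 to 0.991 (DPP4_pos), Pearson's r over genes on log2 values. Counts of FIP libraries 1 and 2 were closer to each other, with a chi-square per degree of freedom of 1.63, than those of the other pairs, at 7.38 to 15.3, but still differed by more than sampling noise, so both were kept. Values below are the authors' normalized values, in the order of replicates 1, 2 and 3, and a difference is FIP minus DPP4_pos in log2(value + 1), where the added 1 shrinks differences of genes with low values. A gene is called at an adjusted p below 0.05 in limma with Benjamini-Hochberg adjustment over the 12828 genes, and all adjusted p-values below come from that fit. In bulk RNA, fewer cells of a type and less RNA per cell cannot be told apart.

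The labels were checked on the sorting targets. Pdgfrb, the receptor used for the sort, stood at 1795, 1729.7 and 1786 in the FIP libraries and 2149, 2374 and 2550.3 in the DPP4_pos libraries, and Pdgfra, its sister receptor on fat progenitors, at 17466, 17761 and 19533 in the FIP libraries and 11079, 12348 and 13026 in the DPP4_pos libraries. Both receptors were present in every library, with Pdgfrb lower in FIP at -0.41 ± 0.09 and Pdgfra higher at 0.59 ± 0.08. Dpp4 itself stood at 7911, 8029 and 9371 in the FIP libraries and 17356, 20848 and 18412 in the DPP4_pos libraries, a difference of -1.16 ± 0.24 (SE, adjusted p = 0.00032). Dpp4 transcripts were thus lower in every FIP library than in any DPP4_pos library, but were far from absent there.

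Of the 12828 genes, 6124 were called, 47.7% of all, with 3039 higher in FIP (23.7%) and 3085 lower (24%). Past a 2-fold change, 831 genes were higher in FIP (6.48%) and 768 lower (5.99%), and the median difference over all tested genes was 0.02. The values of the 3 FIP libraries all lay above those of the 3 DPP4_pos libraries for 3830 genes (29.9%) and all below for 3876 (30.2%), together 60.1% of the genes. At the edge of the filter, 458 genes had a value of 10 in exactly 3 libraries, with a median mean of 11.6, and 309 genes just missed it with 2 libraries, at a median mean of 8.4. Among the genes just inside, 186 passed through the FIP libraries alone and 151 through the DPP4_pos libraries alone, so they had to differ. Counts over any list below leave out the members that did not pass, and stand against 23.7% higher and 24% lower over all tested genes.

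**Figure D1:**
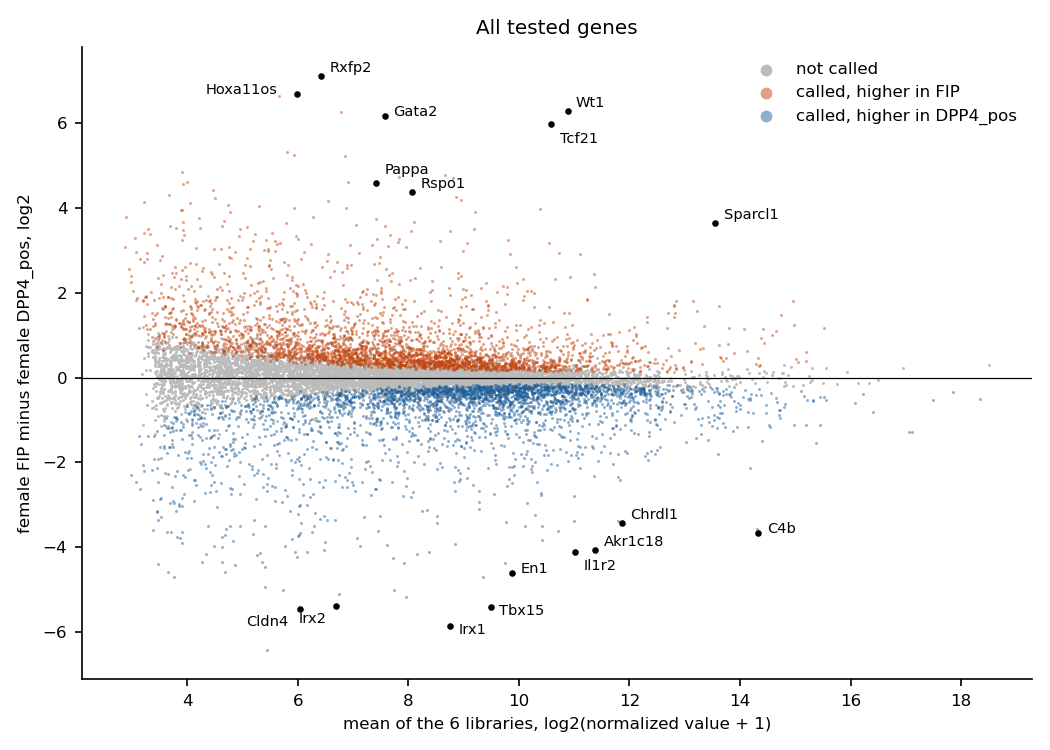
Difference between female FIP and female DPP4_pos (y axis, log2) against the mean level over the 6 libraries (x axis, log2 of the normalized value plus 1), 1 point per tested gene, with called genes in colour. Genes named in black reach from 7.11 for Rxfp2 to -5.85 for Irx1, and Wt1 and Tcf21 combine a high level with a difference near 6.

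Transcription factors known from visceral mesenchyme were among the 12 leading genes of the FIP side, together with a hormone receptor, enzymes and membrane proteins. Wt1 (chr2:105126529-105173614), a zinc-finger transcription factor of the mesothelium and visceral mesenchyme, stood at 3722, 3532 and 3912 in the FIP libraries and 54, 46.8 and 40.5 in the DPP4_pos libraries. The groups were far apart, with a difference of 6.28 ± 0.25 (SE, adjusted p = 3.6e-16). Tcf21 (chr10:22817263-22820143), a basic helix-loop-helix factor of visceral mesenchyme, stood at 3001, 2982 and 3073 against 55, 60.5 and 31.4, a difference of 5.97 ± 0.39 (SE, adjusted p = 4.8e-12). Gata2, a zinc-finger factor that restrains preadipocyte differentiation, stood at 394, 357 and 371 against 5, 5.85 and 2.48 and differed by 6.16 ± 0.33 (SE, adjusted p = 1.1e-13). Rspo1, a secreted amplifier of Wnt signals known from the gonad and mesothelium, stood at 499, 472 and 560.3 against 18, 35.1 and 20.7 and differed by 4.37 ± 0.17 (SE, adjusted p = 1.8e-16). Wt1os, the antisense transcript that starts next to Wt1 with 18 bases between the annotated genes, moved with it, at 93.9, 115 and 114 against 1, 2.93 and 1.65 (5.3 ± 0.42). Because the strand setting of the counting is not given in the sources used here, reads of such neighbours may not be fully separated.

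The gene with the largest named difference was Rxfp2 (chr5:150018675-150082550), the receptor for the testis hormone INSL3, at 199, 168 and 140.3 in the FIP libraries and 0, 0 and 0.826 in the DPP4_pos libraries. A single read fell in the 3 DPP4_pos libraries against 578 in FIP, so the ratio of 553-fold has an exact binomial 95% interval of 98.9 to 21884 that covers counting error only. Other genes in the leading 12 were Necab1, a calcium-binding protein (6.26 ± 0.54), Dapk2, a calmodulin-regulated kinase (5.21 ± 0.22), Lrrn2, a leucine-rich repeat membrane protein (4.77 ± 0.3), Cyp2s1, a cytochrome P450 (4.72 ± 0.28), and Cntn1, a neural cell adhesion molecule (4.7 ± 0.3). The leading 12 genes of each side were picked among genes whose groups did not overlap, so their lack of overlap is no separate result. Of all tested genes, 60.1% had groups that did not overlap.

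Over the list of regulators of visceral and gonadal fat, 8 of 12 tested members were called higher in FIP and 4 lower (median difference 0.87). Upk3b passed the filter through the FIP libraries alone and so had to differ. Among the other 11 members 7 were higher and 4 lower (median difference 0.71). The 2 COUP-TF nuclear receptors were higher in FIP, Nr2f2 at 2.29 ± 0.12 and Nr2f1 at 1.03 ± 0.14, as was Gata6, a zinc-finger factor of visceral mesoderm, at 0.71 ± 0.08, and Tbx18, a T-box factor of mural and epicardial cells, at 0.39 ± 0.1. The 4 members that were lower in FIP included 3 that are known from urogenital mesoderm. Osr1 stood at 1245, 1261 and 1169 against 2677, 2432 and 2546 (-1.06 ± 0.11), Emx2 at 248, 242 and 235 against 463, 494 and 521 (-1.02 ± 0.13), and Gpc3, a cell-surface proteoglycan, at 6079, 6021 and 6885 against 12887, 14735 and 13363 (-1.11 ± 0.08). The fourth was Mab21l1 at -3.15 ± 0.29. Gata4, Nr5a1 and Lhx9, which mark gonadal somatic cells, did not pass the filter.

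Patterning genes of limb and body-wall mesenchyme were among the 12 leading genes of the DPP4_pos side. Tbx15 (chr3:99240348-99354260), a T-box factor of subcutaneous fat and limb, stood at 39.1, 50.3 and 16.9 in the FIP libraries and 1299, 1425 and 1497 in the DPP4_pos libraries. The lowest DPP4_pos library was above the highest FIP library by a wide margin, and the difference was -5.4 ± 0.3 (SE, adjusted p = 1.6e-13). Irx1, an Iroquois homeobox factor, stood at 18.3, 17.1 and 7.96 against 834, 697 and 1020.3, a difference of -5.85 ± 0.3 (SE, adjusted p = 3.7e-14), and its neighbour in the genome Irx2 at 2.49, 6.82 and 2.99 against 190.1, 164 and 248, a difference of -5.38 ± 0.37 (SE, adjusted p = 1.3e-11). En1, an Engrailed homeobox factor of ventral ectoderm and dermal fibroblast lineages, stood at 69, 76.8 and 72.6 against 1892, 1789.9 and 1731, a difference of -4.61 ± 0.33 (SE, adjusted p = 2.6e-11). Shox2, a short-stature homeobox factor of the proximal limb, stood at 8.31, 5.12 and 2.99 against 208, 197 and 217, a difference of -5.09 ± 0.41 (SE, adjusted p = 1.5e-10). FIP replicate 3 held the lowest value of the FIP libraries for Tbx15, Irx1 and Shox2, but not for Irx2 or En1.

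Over the list of subcutaneous and limb regulators, 1 of 15 tested members were called higher in FIP and 11 lower (median difference -3.8). Shox2, Irx2, Irx5 and Sim1 passed the filter through the DPP4_pos libraries alone and so had to differ, and among the other 11 members 1 was higher and 7 lower (median difference -0.98). Irx3 (-2.03 ± 0.24) and Irx5 (-4.34 ± 0.39), the other Iroquois genes tested, Tbx5 of the forelimb field (-3.8 ± 0.53), Prrx1 of limb mesenchyme (-0.98 ± 0.12) and Twist2 of dermis (-0.63 ± 0.12) were lower in FIP. Sim1, a basic helix-loop-helix factor, had no read in the FIP libraries and 65 in DPP4_pos, at least 22.6-fold higher in DPP4_pos with a floor of 3 counts over the group. The exception was Meis1, a TALE homeobox cofactor of HOX proteins, at 680.5, 706 and 648 against 263, 264 and 292, higher in FIP by 1.31 ± 0.11. Pitx1, the hindlimb factor, was level at 59, 60.6 and 49.8 against 52, 61.5 and 51.2 (difference 0.04 ± 0.44 (SE, adjusted p = 0.95)), and so was Hoxc10 at 283, 257 and 247 against 245, 208 and 283 (difference 0.11 ± 0.25 (SE, adjusted p = 0.75)). Sfrp2, a secreted Wnt modulator, missed the threshold at 0.36 ± 0.16 (SE, adjusted p = 0.072) and passed it with a replicate block (adjusted p = 0.044), under quantile normalization (0.58, adjusted p = 0.0059) and without DPP4_pos replicate 2 (0.52, adjusted p = 0.018) or replicate 3 (0.46, adjusted p = 0.042).

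**Figure D2:**
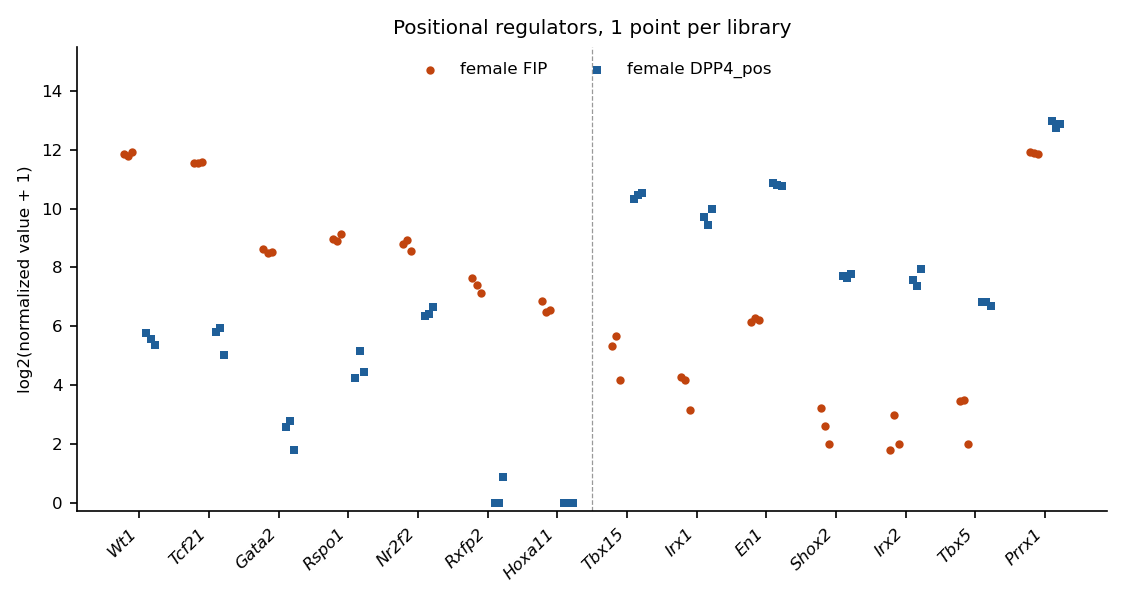
Level of 14 positional regulators (y axis, log2 of the normalized value plus 1) in each of the 3 female FIP libraries (circles) and 3 female DPP4_pos libraries (squares), with genes higher in FIP left of the dashed line. No gene shown has overlapping groups, which holds for 60.1% of all tested genes, and Hoxa11 has no read in any DPP4_pos library.

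HOX genes, which record position along the body axis, went in both directions. Of 39 members, 14 did not pass the filter, and 14 of 25 tested members were called higher in FIP and 4 lower (median difference 0.85). Hoxa2, Hoxa4, Hoxa11, Hoxa13, Hoxd10 and Hoxd11 passed through the FIP libraries alone and so had to differ, and among the other 19 members 8 were higher and 4 lower (median difference 0.66). Hoxa11, Hoxa13, Hoxd10 and Hoxd11, posterior genes of the HoxA and HoxD clusters, were nearly confined to FIP among the 6 libraries. All of them passed through FIP alone, and the more posterior Hoxd12 and Hoxd13 did not pass the filter. Hoxa11 stood at 114, 88.7 and 93.5 in the FIP libraries and 0, 0 and 0 in the DPP4_pos libraries, at least 107-fold higher in FIP. Hoxa13 stood at 14.1, 10.2 and 13.9 in FIP and Hoxd11 at 18.3, 16.2 and 14.9, both with no read in DPP4_pos, at least 13.7-fold and 17.9-fold higher. Hoxd10 had 79 reads against 1, a ratio of 75.6 with an exact binomial 95% interval of 13.2 to 3023, and Hoxd9 was higher by 2.55 ± 0.36 (SE, adjusted p = 2e-06).

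Hoxa11os, the antisense transcript of Hoxa11, stood at 116, 119 and 138 against 0, 0 and 0.826, with 418 reads against 1. The 2 annotated genes share 568 bases on chromosome 6, so some reads may belong to either. Hoxa10 (1.17 ± 0.35), Hoxa5 (1.62 ± 0.18), Hoxa2 (1.41 ± 0.29) and Hoxa3 (0.93 ± 0.25) were also higher in FIP, whereas Hoxa9 did not pass the test (0.39 ± 0.52 (SE, adjusted p = 0.57)). In the HoxC cluster the direction was the other one for 3 of 7 tested members, with Hoxc8 at 127, 137 and 110.5 against 279, 241 and 267 (-1.07 ± 0.13), Hoxc9 lower at -0.7 ± 0.16 and Hoxc5 at -0.58 ± 0.21. Hoxc4, Hoxc6, Hoxc10 and Hoxc11 were not called. Hoxb2 was lower in FIP (-0.73 ± 0.19) and Hoxb4 (0.66 ± 0.16) and Hoxb6 (0.9 ± 0.23) higher. The calls of Hoxa4 (1.17 ± 0.43 (SE, adjusted p = 0.028)) and Hoxc5 (-0.58 ± 0.21 (SE, adjusted p = 0.028)) were the weakest of the cluster and were lost when single libraries were left out, Hoxa4 without either of DPP4_pos replicates 1 and 2 or any FIP replicate (adjusted p up to 0.11), and Hoxc5 without DPP4_pos replicates 1 or 2 or FIP replicates 2 or 3 (adjusted p up to 0.11).

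**Figure D3:**
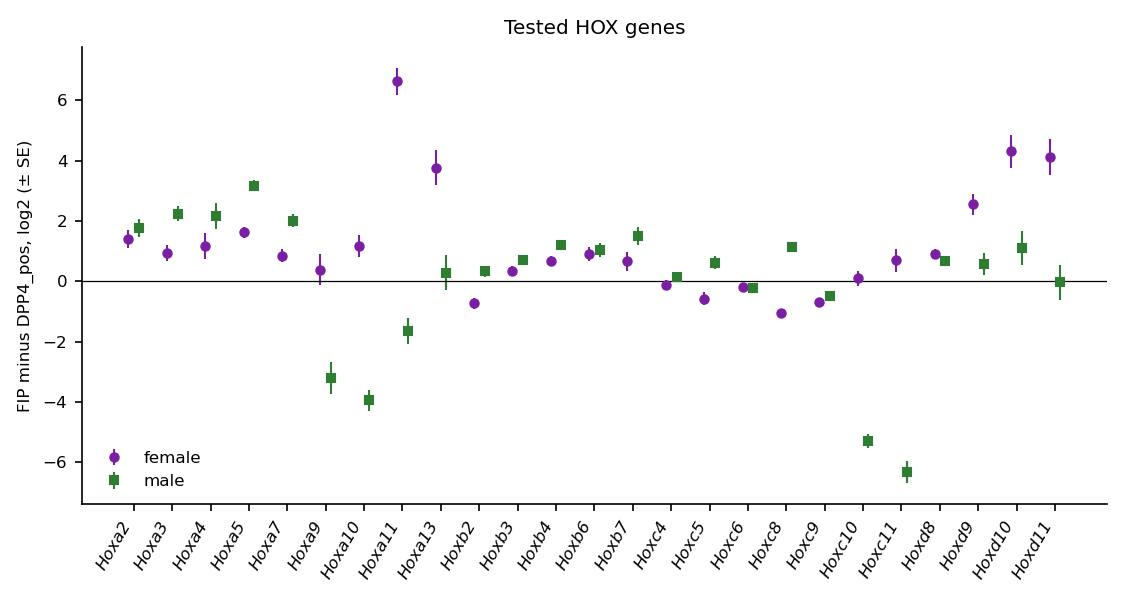
Difference between FIP and DPP4_pos (y axis, log2, with its standard error) for the 25 tested HOX genes in females (circles) and males (squares). In females Hoxa11, Hoxd10, Hoxd11 and Hoxa13 lie near or above 4, whereas in males Hoxc10, Hoxc11, Hoxa10 and Hoxa9 lie below -3.

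Genes of the interstitial progenitor state were mostly, but not all, lower in FIP. Over that list 4 of 16 tested members were called higher in FIP and 9 lower (median difference -0.69). Pi16, a secreted peptidase inhibitor that marks these cells, stood at 27227, 25986 and 30915 in the FIP libraries and 54926, 69536 and 58036 in the DPP4_pos libraries, a difference of -1.11 ± 0.23 (SE, adjusted p = 0.00031). Wnt2 (-2.22 ± 0.32), Bmp7 (-1.87 ± 0.34), Anxa3 (-1.34 ± 0.22), Wnt10b (-1.34 ± 0.32) and Opcml (-0.73 ± 0.15) were lower with it. Cd55, a complement-regulating surface protein of the same cells, went the other way at 12284, 12838 and 12807 against 7942, 7585 and 8072 (0.68 ± 0.16), as did Dact2, a Wnt pathway adaptor, at 729.5, 668 and 742 against 225, 304 and 245 (1.47 ± 0.16), Limch1 (0.92 ± 0.22) and Nov (0.83 ± 0.26). Fn1, the fibronectin gene, was called at -0.35 ± 0.13 (SE, adjusted p = 0.035), and the call was lost when any single library other than DPP4_pos replicate 3 was left out (adjusted p up to 0.11), with no filter (adjusted p = 0.1028) and with only the libraries compared (adjusted p = 0.058). Under quantile normalization the Fn1 difference was 0. That method gives 0 for any gene of equal rank in all libraries, so it cannot test this gene.

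Surface proteins of stem-like stroma followed Pi16. Ly6a (SCA-1) stood at 9804, 9983 and 9153 against 20197, 20935 and 24229 (-1.17 ± 0.13) and Ly6c1 at 4088, 4422 and 4369 against 10840.3, 12275 and 13774 (-1.51 ± 0.19), while Thy1 (-1.21 ± 0.1), Cd34 (-0.57 ± 0.11) and Cd9 (-0.6 ± 0.12) were also lower in FIP. Ly6c1 has a near-identical neighbour, so its reads may be split between copies. Itgb1, the beta-1 integrin, did not pass the test (-0.11 ± 0.06 (SE, adjusted p = 0.13)).

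Genes of committed preadipocytes were mostly higher in FIP. Over that list 13 of 17 tested members were called higher in FIP and 1 lower (median difference 1.24), where 23.7% of all genes were higher and 24% lower. Sparcl1, a secreted matricellular protein, stood at 21528, 21396 and 23866 in the FIP libraries and 1751, 1879.6 and 1736 in the DPP4_pos libraries. Every FIP library was above every DPP4_pos library, by 3.64 ± 0.13 (SE, adjusted p = 9.8e-17). Lpl, the lipase that releases fatty acids from lipoproteins, stood at 18715, 19811 and 18764 against 5089.6, 6426 and 6490.3 (1.68 ± 0.12), and Cd36, a fatty acid carrier, at 1108, 1033 and 1028 against 400.1, 343 and 259 (1.68 ± 0.13). Vtn (vitronectin, 2.11 ± 0.13), Car3 (carbonic anhydrase 3, 2.91 ± 0.27) and Col15a1 (a basement-membrane-zone collagen, 1.52 ± 0.18) were higher as well. Icam1 and Zfp423, list members given here in addition to the named genes, had lower means in FIP. Icam1 stood at a mean of 8026 in FIP and 9464 in DPP4_pos, and Zfp423 at 185 and 218. Over adipocyte lipid storage genes, 10 of 17 tested members were called higher in FIP and 1 lower (median difference 0.51), with Plin1, the lipid droplet coat protein, at 44, 29 and 20.9 against 12, 2.93 and 1.65 (2.59 ± 0.36). Adipocyte markers as a whole summed to 116 to 161 in FIP and 17.3 to 72 in DPP4_pos, and of 8 of them 3 were called higher, 0 lower and 4 (Lep, Retn, Cidea, Ucp1) did not pass the filter. Their part in the lipid gene result was not tested.

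F3, the tissue factor gene that marks a stromal population described as antiadipogenic, stood at 1909, 2036 and 1972 against 472, 524 and 497 and was higher in FIP by 1.99 ± 0.08 (SE, adjusted p = 1e-15). Over the list of genes known from those cells, 5 of 9 tested members were called higher in FIP and 2 lower (median difference 0.43). Mgp, an inhibitor of calcification (2.92 ± 0.18), and Gdf10, a TGF-beta family ligand (1.83 ± 0.09), were higher in FIP, and Igfbp3 was lower (-1.86 ± 0.15).

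Sex steroid receptors did not share a pattern. Esr1, the estrogen receptor alpha gene, was level at 1183, 1159 and 1208 against 1173, 1228 and 1155 (difference -0.0 ± 0.14 (SE, adjusted p = 0.99)). Pgr, the progesterone receptor gene, stood at 88.1, 70.8 and 29.9 in the FIP libraries and 744, 321 and 565 in the DPP4_pos libraries. The groups did not overlap, and the difference was -3.14 ± 0.46 (SE, adjusted p = 4.3e-06). Greb1, a gene known to be induced by estrogen, stood at 346, 345 and 204 against 1502, 763 and 1469, a difference of -2.03 ± 0.46 (SE, adjusted p = 0.0008). In both genes DPP4_pos replicate 2 was the lowest of its group and FIP replicate 3 the lowest of the other.

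Over steroid and nuclear receptors, 6 of 17 tested members were called higher in FIP and 7 lower (median difference -0.11). Nr1h3 (LXR alpha, 1.56 ± 0.09), Nr4a1 (an immediate early orphan receptor, 1.8 ± 0.12), Nr3c1 (the glucocorticoid receptor, 0.53 ± 0.07), Nr2f6 (0.33 ± 0.09) and Vdr (0.81 ± 0.25) were higher in FIP. The call of Vdr was lost without DPP4_pos replicate 3 or FIP replicate 3 (adjusted p up to 0.081). Rarg (-1.09 ± 0.08), Rara (-0.78 ± 0.11), Rarb (-0.65 ± 0.17), Thrb (-0.73 ± 0.15) and Ppard (-0.61 ± 0.09) were lower. Thra, at 0.19 ± 0.07 (SE, adjusted p = 0.04), passed narrowly and was lost without any one of the DPP4_pos replicates or FIP replicate 3 (adjusted p up to 0.21) and in the fit with a replicate block (adjusted p = 0.05006). Nr3c2 and Rxra did not pass the test.

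Enzymes that make and break down steroids divided. Akr1c18, which inactivates progesterone, stood at 311, 336 and 258 in the FIP libraries and 5447, 4750.2 and 4919.7 in the DPP4_pos libraries. It was lower in FIP, with a difference of -4.06 ± 0.48 (SE, adjusted p = 1.6e-07) with no overlap. Akr1c14, a 3-alpha-hydroxysteroid dehydrogenase, stood at 385, 407 and 285 against 3617, 3249 and 4249 (-3.37 ± 0.3). Star, which carries cholesterol into mitochondria, stood at 371, 409 and 289 against 38, 43.9 and 38.8 and was higher in FIP (3.1 ± 0.26), as was Hsd11b2, which inactivates glucocorticoid, at 196, 198 and 144 against 18, 28.3 and 35.5 (2.71 ± 0.33). Over the list, 5 of 12 tested members were called higher in FIP and 5 lower (median difference -0.18), or 4 and 3 under quantile normalization or without FIP replicate 1 and 5 and 3 without DPP4_pos replicate 2. The Akr1c genes form a cluster of close paralogs, and reads may be split between copies. Adh7 (-5.16 ± 0.4) and Dhrs9 (-4.37 ± 0.47), dehydrogenases that can act on retinol, were among the 12 genes leading the DPP4_pos side. In the retinoid list, 4 of 10 tested members were called higher in FIP and 5 lower (median difference -0.45), with Rdh10, the retinol dehydrogenase of the first oxidation step, at 1903, 1997 and 1877 against 482, 463 and 449 and higher in FIP (2.05 ± 0.09), Aldh1a2 also higher (2.67 ± 0.27), and Aldh1a1 (-1.03 ± 0.1) and the retinoic acid hydroxylase Cyp26b1 (-1.68 ± 0.24) lower. Aldh1a2 passed the filter through the FIP libraries alone and so had to differ. Among the other 9 members of the retinoid list 3 were higher and 5 lower (median difference -0.52).

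Secreted signals differed by pathway. In the Hedgehog pathway 7 of 9 tested members were called higher in FIP and 0 lower (median difference 1.15), against 23.7% higher and 24% lower over all genes. Gli1, the transcription factor and target gene of the pathway, stood at 71.5, 64 and 52.7 against 12, 11.7 and 14 (2.22 ± 0.23 (SE, adjusted p = 1.4e-08)). Gli2 (1.6 ± 0.14), the receptor gene Ptch1 (1.28 ± 0.2) and the co-receptor gene Gas1 (1.32 ± 0.12) were also higher in FIP, while no Hedgehog ligand gene passed the filter.

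Among BMP ligands, receptors and antagonists, 9 of 24 tested members were called higher in FIP and 13 lower (median difference -0.4). Bmp3 passed the filter through the DPP4_pos libraries alone and 1 other member through the FIP libraries alone, so both had to differ. Among the other 22 members 8 were higher and 12 lower (median difference -0.4). Chrdl1, a secreted BMP antagonist, stood at 577, 626 and 684 in the FIP libraries and 5698, 7808 and 7018 in the DPP4_pos libraries. It was lower in FIP, with a difference of -3.43 ± 0.12 (SE, adjusted p = 4e-17), with its groups well apart. The ligands Bmp3 (-4.11 ± 0.51), Gdf6 (-2.26 ± 0.36), Bmp7 and Bmp4 (-1.69 ± 0.15) were lower in FIP as well. Among TGF-beta and activin genes, 5 of 19 tested members were called higher in FIP and 6 lower (median difference 0.06), with the activin subunit Inhbb (2.26 ± 0.17) and the latency protein Ltbp4 (1.81 ± 0.1) higher and the inhibitory Smad7 (-1.75 ± 0.11) and the target Tgfbi (-2.09 ± 0.14) lower.

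Among Wnt ligands and receptors, 12 of 22 tested members were called higher in FIP and 6 lower (median difference 0.36). Besides Rspo1, Wnt4 was higher in FIP (2.07 ± 0.41), while Wnt2, Wnt10b and Wnt16 (-3.97 ± 0.48) were lower. Wnt16 passed the filter through the DPP4_pos libraries alone and so had to differ. Among the other 21 members 12 were higher and 5 lower (median difference 0.37). Among Wnt antagonists and targets, 6 of 14 tested members were called higher in FIP and 4 lower (median difference 0.34), with Dkk2 at 31.6, 36.7 and 20.9 against 468, 603 and 549 (-4.17 ± 0.23), Sfrp4 (-1.74 ± 0.18) and Apcdd1 (-1.89 ± 0.24) lower and Frzb higher (3.76 ± 0.44). Frzb passed through the FIP libraries alone and so had to differ. Among the other 13 members 5 were higher and 4 lower (median difference 0.33). Wisp2, a matricellular protein induced by Wnt signals, was among the 12 genes leading the DPP4_pos side (-4.69 ± 0.26).

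The 2 pappalysin genes, whose products cleave IGF-binding proteins, went in opposite directions. Pappa stood at 346, 335 and 297 in the FIP libraries and 20.01, 10.7 and 9.09 in the DPP4_pos libraries, higher in FIP by 4.59 ± 0.35 (SE, adjusted p = 5.3e-11). Pappa2 stood at 11.6, 6.82 and 6.97 against 118, 119.98 and 119.8, lower at -3.7 ± 0.32. The binding proteins Igfbp5 (-1.55 ± 0.15) and Igfbp3 were lower in FIP, and over the IGF axis 5 of 14 tested members were called higher in FIP and 7 lower (median difference -0.17). In the FGF list 6 of 16 tested members were called higher in FIP and 4 lower (median difference 0.26), with Fgf1 (3.44 ± 0.13), Fgf10 (2.22 ± 0.14) and the feedback inhibitor Spry4 (2.01 ± 0.16) higher and Fgf14 lower (-2.33 ± 0.37). Fgf14 passed the filter through the DPP4_pos libraries alone and so had to differ. Among the other 15 members 6 were higher and 3 lower (median difference 0.32).

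Matrix genes moved in both directions. Over collagens, 12 of 26 tested members were called higher in FIP and 11 lower (median difference 0.18), or 7 lower without DPP4_pos replicate 3 or FIP replicate 3, with Col6a5 (2.43 ± 0.32) and Col8a2 (3.21 ± 0.22) higher and Col12a1, a fibril-associated collagen, lower (-2.09 ± 0.14). Col8a2 passed the filter through the FIP libraries alone and so had to differ. Among the other 25 collagens 11 were higher and 11 lower (median difference 0.01). Over elastic fibre genes, 2 of 17 tested members were called higher in FIP and 8 lower (median difference -0.27). That balance turned to 5 higher and 3 lower under quantile normalization, and 5 were lower with no filter on low values or without FIP replicate 3. The cross-linking enzymes Lox (-0.92 ± 0.09) and Loxl1 (-0.51 ± 0.08) were lower. Over proteoglycans, 4 of 20 tested members were called higher in FIP and 11 lower (median difference -0.46). Prg4 (lubricin) stood at 243, 249.9 and 178 against 2997, 2478 and 2080.2 (-3.49 ± 0.23 (SE, adjusted p = 6e-12)), and the hyaluronan receptor Cd44 at 2215, 2287 and 1915 against 9274, 7976 and 7430.4 (-1.94 ± 0.08). Over proteases and inhibitors, 7 of 23 tested members were called higher in FIP and 11 lower (median difference -0.15). Mmp3 (stromelysin 1) stood at 689, 677 and 484 in the FIP libraries and 4443, 7745 and 7235 in the DPP4_pos libraries, lower in FIP, with a difference of -3.37 ± 0.18 (SE, adjusted p = 6.9e-14), and Adamts16 at 2931, 2815 and 2358 against 301, 296 and 299.9, higher by 3.17 ± 0.31. DPP4_pos replicate 1 was the lowest of its group for Mmp3. Over contractile and myofibroblast genes, 4 of 11 tested members were called higher in FIP and 6 lower (median difference -0.37). Lrrc15 (-3.95 ± 0.3), Cthrc1 (-2.15 ± 0.2) and Fap (-1.63 ± 0.07), genes known from activated fibroblasts, were lower in FIP, and Tpm2, a tropomyosin, was higher (1.98 ± 0.19). Over basement membrane genes, 4 of 17 tested members were called higher in FIP and 5 lower (median difference -0.05), with the laminin chain Lamb1 higher (1.01 ± 0.08) and Frem1 lower (-3.74 ± 0.44).

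Immune genes were mostly lower in FIP than in DPP4_pos in 4 lists, those of interferon response, MHC class I, cytokine and complement genes. Over interferon response genes, 0 of 19 tested members were called higher in FIP and 16 lower (median difference -1.26), where 24% of all genes were lower. Ifit3, an interferon-induced antiviral protein, stood at 323, 321 and 385 in the FIP libraries and 1148, 1426 and 4102 in the DPP4_pos libraries. All 3 FIP libraries were below all DPP4_pos libraries, and DPP4_pos replicate 3 was far above its fellows. The difference was -2.46 ± 0.27 (SE, adjusted p = 3.2e-08) with that library and -1.9 (adjusted p = 6.4e-10) without it. Rsad2 (viperin) stood at 222, 224 and 266 against 633, 914 and 1913 (-2.12 ± 0.23) and Bst2 (tetherin) at 779, 716 and 761 against 2296, 2633 and 4244 (-1.97 ± 0.16), with replicate 3 again the highest. Without DPP4_pos replicate 3, 14 of the 19 genes were lower in FIP and none was higher. Over MHC class I genes, 0 of 15 tested members were called higher in FIP and 12 lower (median difference -0.82), again where 24% of all genes were lower, with H2-T23 at 773, 813 and 973 against 2297, 3092 and 3783 (-1.82 ± 0.12) and H2-K1 at 7849, 7642 and 7984 against 13081, 16558 and 18005 (-1.01 ± 0.09). These genes have near-identical copies, and reads may be split between them.

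Interferon response genes are known for a response element in their promoters, so the motif GAAANNGAAA was searched on both strands in the RefSeq promoters (GRCm38.p6, 250 bases before to 50 after the start). The motif was chosen after the values had been seen. It stood in the promoters of 8 of the 15 list genes that have one in the RefSeq table (53.3%) and of 375 of 9965 tested genes (3.76%). Among genes called past 2-fold it stood in 38 of 561 that were lower in FIP (6.77%) and 25 of 619 that were higher (4.04%). The 38 include list genes such as Ifit3, Rsad2 and Bst2, so that share is not separate from the share of the list. The 250 bases before the start of 4 list genes are shown, each with the motif, which can overlap itself, in capitals.
Isg15, chr4:156200819-156201068, minus strand: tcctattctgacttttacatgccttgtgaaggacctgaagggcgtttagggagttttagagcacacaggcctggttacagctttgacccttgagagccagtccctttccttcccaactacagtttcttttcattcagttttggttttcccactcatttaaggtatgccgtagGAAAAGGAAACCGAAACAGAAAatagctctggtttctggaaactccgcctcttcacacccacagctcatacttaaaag
Rsad2, chr12:26456453-26456702, minus strand: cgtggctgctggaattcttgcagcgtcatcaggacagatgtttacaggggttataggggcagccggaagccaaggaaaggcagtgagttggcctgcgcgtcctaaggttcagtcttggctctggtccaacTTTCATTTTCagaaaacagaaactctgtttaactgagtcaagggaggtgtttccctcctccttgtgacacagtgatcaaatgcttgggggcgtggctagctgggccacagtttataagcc
Bst2, chr8:71537473-71537722, minus strand: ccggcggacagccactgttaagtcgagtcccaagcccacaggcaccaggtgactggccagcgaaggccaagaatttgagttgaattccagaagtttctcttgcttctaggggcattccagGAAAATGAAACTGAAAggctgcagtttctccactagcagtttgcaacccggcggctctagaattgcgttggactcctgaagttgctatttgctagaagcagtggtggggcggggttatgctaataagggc
Ifit3, chr19:34583279-34583528, plus strand: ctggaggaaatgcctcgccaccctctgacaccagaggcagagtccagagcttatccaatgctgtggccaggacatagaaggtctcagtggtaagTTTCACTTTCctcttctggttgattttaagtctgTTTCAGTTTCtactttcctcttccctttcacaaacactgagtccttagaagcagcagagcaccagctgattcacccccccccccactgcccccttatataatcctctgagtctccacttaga
In Isg15 the stretch holds 3 overlapping matches that begin 78, 72 and 66 bases before the start, and in Bst2 2 matches that begin 130 and 124 bases before it. In Ifit3 the 2 matches are separate, 156 and 122 bases before the start, and in Rsad2 the single match lies 120 bases before it. Ifi35, Ifi44, Ifit2, Irf7, Irf9, Oasl2 and Xaf1 had no match in their windows. A match is a description of these letters and not evidence of binding.

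Among cytokine and receptor genes 3 of 19 tested members were called higher in FIP and 12 lower (median difference -0.95), where 24% of all genes were lower. Il33, an alarmin released by stromal cells, stood at 810.1, 855 and 779 in the FIP libraries and 3190.0, 3815 and 3798 in the DPP4_pos libraries, and Il1rl1, which encodes its receptor ST2, at 268, 265 and 209.99 in the FIP libraries and 4120.3, 2407 and 2813 in the DPP4_pos libraries. Both had groups far apart, with differences of -2.14 ± 0.14 (SE, adjusted p = 5.4e-12) and -3.62 ± 0.21 (SE, adjusted p = 5.7e-13). Il1r2, the decoy receptor for interleukin-1, stood at 243, 282 and 169 against 3493, 3827 and 4456 (-4.1 ± 0.17 (SE, adjusted p = 6e-16)), and Csf2 (GM-CSF) at 10.8, 19.6 and 14.9 against 158, 98.5 and 124 (-3.0 ± 0.29). Among complement genes 3 of 16 tested members were called higher in FIP and 10 lower (median difference -0.52), against the same 24%. C4b stood at 3311, 3227 and 2447 in the FIP libraries and 27974, 44254 and 42574 in the DPP4_pos libraries, lower in FIP, with a difference of -3.66 ± 0.16 (SE, adjusted p = 1.7e-15), and Cfb (-1.8 ± 0.11) and Clu (-2.02 ± 0.16) were lower too. C4b has a close paralog, so its reads may be shared.

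Chemokines divided. Ccl11 (eotaxin) stood at 9311, 9637 and 13552 against 3617, 3804 and 3723 and was higher in FIP (1.52 ± 0.11 (SE, adjusted p = 4.7e-11)), as were Cxcl10 at 5041, 5099 and 7366 against 2219.7, 2534 and 4338 (0.99 ± 0.2) and Cxcl9 (1.19 ± 0.23), 2 chemokines known to be induced by interferon. In FIP replicate 3 the values of these 3 chemokines were the highest of its group. Cxcl13 (-2.47 ± 0.2), Cxcl5 (-0.94 ± 0.24), Ccl8 (-1.76 ± 0.19) and Ccl6 (-2.09 ± 0.52) were lower in FIP. Over CXC chemokines, 2 of 9 tested members were called higher in FIP and 4 lower (median difference 0.06), with 2 lower without DPP4_pos replicate 1, and over CC and CX3C chemokines, 1 of 10 tested members were called higher in FIP and 6 lower (median difference -1.0). Among acute phase genes, 2 of 8 tested members were called higher in FIP and 5 lower (median difference -0.81), or 3 lower with edgeR or without FIP replicate 1 or 2, with Hp (haptoglobin) higher (2.41 ± 0.38) and Lbp lower (-1.31 ± 0.1).

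**Figure D4:**
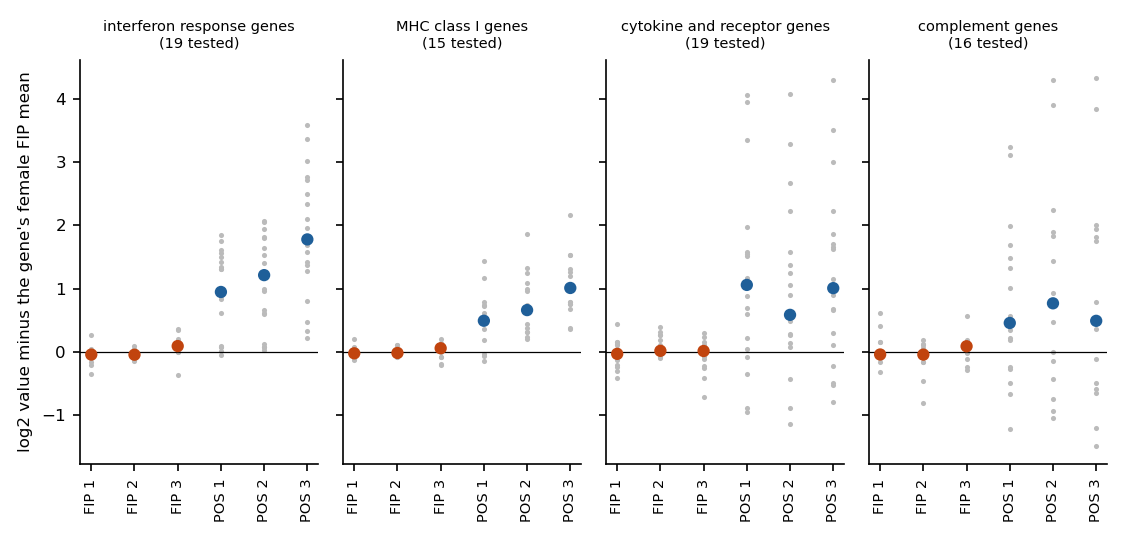
Log2 value minus the gene's mean over the female FIP libraries (y axis) for the tested genes of 4 immune lists in each FIP and DPP4_pos (POS) library, grey points for genes and coloured points for the list median. DPP4_pos replicate 3 has the highest medians for interferon response and MHC class I genes, and the FIP medians lie near 0 by construction.

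Immediate early genes, which also respond to tissue dissociation, were mostly higher in FIP, with 13 of 19 called higher and 3 lower (median difference 0.81), where 23.7% of all genes were higher and 24% lower. Egr2 stood at 1893, 1852 and 1712 against 426, 456 and 436 (2.05 ± 0.12) and Nr4a1 at 13327, 12983 and 16052 against 3977, 4563 and 3599 (1.8 ± 0.12), and Klf2 (1.51 ± 0.17) and Nr4a2 (1.72 ± 0.16) were higher as well. In the integrated stress response list 7 of 12 tested members were called higher in FIP and 0 lower (median difference 0.41). The sum of the immediate early genes was 320256 to 337299 in FIP and 196117 to 225714 in DPP4_pos. Its part in the other results was not tested.

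Housekeeping lists had small differences, and their counts depended on the setting. Over ribosomal protein genes, 0 of 27 tested members were called higher in FIP and 17 lower (median difference -0.27). The lower count was 2 under quantile normalization, 8 without FIP replicate 1, 10 without DPP4_pos replicate 2 or 3 and 26 with only the libraries compared. Over oxidative phosphorylation genes, 1 of 27 tested members were called higher in FIP and 4 lower (median difference -0.07), with 1 or 2 lower when any single library other than DPP4_pos replicate 2 was left out, 3 higher and 2 lower under quantile normalization and 7 lower with only the libraries compared. Over cholesterol synthesis genes, 5 of 19 tested members were called higher in FIP and 4 lower (median difference 0.08), with Dhcr7 at 1.74 ± 0.18. That split was 8 and 1 without DPP4_pos replicate 3, 6 and 1 without FIP replicate 3, 3 and 2 without DPP4_pos replicate 1, 3 and 4 without DPP4_pos replicate 2 or FIP replicate 1, and 3 and 3 with only the libraries compared. Among glycolysis and hypoxia genes 2 of 17 tested members were called higher in FIP and 8 lower (median difference -0.21), or 4 and 6 under quantile normalization and 0 and 9 without DPP4_pos replicate 2, with Hk2 (hexokinase 2) at 7948, 7659.8 and 7079 against 16126, 18524 and 16724 (-1.18 ± 0.08) and Ndrg1 (-1.2 ± 0.08) lower. Of 21 proliferation genes 3 were called higher in FIP and none lower, 7 were higher without DPP4_pos replicate 3, and 1 was higher without DPP4_pos replicates 1 or 2 or FIP replicate 1. Mki67 stood at 233, 199.6 and 136 against 90.03, 72.2 and 178 (0.81 ± 0.26 (SE, adjusted p = 0.013)), overlapping, and its call was lost without DPP4_pos replicates 1 or 2 or FIP replicate 1 (adjusted p up to 0.11). Pcna (0.17 ± 0.07 (SE, adjusted p = 0.047)) lost its call when any single library was left out (adjusted p up to 0.13), and Mcm4 (0.42 ± 0.08) kept it.

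Genes for nerve and vessel signals also set the groups apart. Gdnf, a neurotrophic ligand, stood at 20.8, 17.1 and 7.96 against 174, 148 and 135 (-3.33 ± 0.39) and was lower in FIP, as was Ptn, pleiotrophin (-2.45 ± 0.32), while Ntrk3, the neurotrophin-3 receptor, was higher (2.04 ± 0.18). Over neurotrophic genes 6 of 14 tested members were called higher in FIP and 5 lower (median difference 0.33), and that median turned to -0.18 without DPP4_pos replicate 2. Of these members 2 passed the filter through the FIP libraries alone and so had to differ. Among the other 12 members 4 were higher and 5 lower (median difference -0.44). Over axon guidance genes, 11 of 24 tested members were called higher in FIP and 7 lower (median difference 0.3), with Robo2 (3.02 ± 0.34) and Efnb1 (1.81 ± 0.11) higher and Epha3 (-4.24 ± 0.24) and Ntn1 (-1.67 ± 0.1) lower. Robo2 passed through the FIP libraries alone and so had to differ. Among the other 23 members 10 were higher and 7 lower (median difference 0.29). Over prostaglandin and vasoactive genes, 7 of 18 tested members were called higher in FIP and 5 lower (median difference 0.32), with Ptger4 (2.21 ± 0.11), Ptgfr (1.57 ± 0.27) and the natriuretic peptide clearance receptor Npr3 (1.67 ± 0.26) higher and the angiotensin receptor gene Agtr2 lower (-1.84 ± 0.41).

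Markers of other cell types were detected, and several differed between the groups. The mesothelial, epithelial, macrophage and lymphocyte lists had sums below those of the vascular lists given further on. The mesothelial genes Upk3b (108, 103 and 140.3 against 1, 1.95 and 4.13), Msln (27.4, 22.2 and 40.8 against 0, 1.95 and 0.826), Lrrn4 and Upk1b were higher in FIP, and 5 of 8 tested mesothelial markers were called higher and 3 lower. Of these 8, the 4 genes just named passed the filter through FIP alone and Krt18 through DPP4_pos alone, so they had to differ. The sum of the whole list was 369.7 to 428 in FIP and 433 to 652 in DPP4_pos, the latter with Krt8 at 11.6, 7.68 and 10.9 against 105, 199 and 119. The mesothelial markers Muc16 and Bnc1 did not pass the filter.

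Epithelial markers were higher in DPP4_pos for all 5 tested members, but Epcam, Cdh1 and Cldn4 passed the filter through the DPP4_pos libraries alone and so had to differ. The female inguinal depot contains the mammary gland, and Epcam stood at 3.32, 0 and 3.98 against 30.01, 61.5 and 43, Cdh1 at 2.49, 0.853 and 0 against 17, 38 and 23.1 and Cldn4 at 0.831, 5.12 and 0.995 against 109, 177 and 95.8. Their sum was 31.8 to 36.7 in FIP and 233 to 412 in DPP4_pos, and Krt14, Krt5 and Trp63, which define the basal layer, did not pass the filter. DPP4_pos replicate 2 was the highest for each of the 3 genes given. Dmbt1, a mucosal gene below the level set for naming and picked after its values were seen, had the most negative difference of all, with 0, 0 and 0 against 74, 84.9 and 97.5. Macrophage markers summed to 141 to 189 in FIP and 276 to 337 in DPP4_pos, with 1 of 8 tested members called higher and 7 lower. The lower count fell to 3 without DPP4_pos replicate 3 or FIP replicate 2 and to 4 without DPP4_pos replicate 1 or FIP replicate 1. Ptprc (CD45) stood at 0, 2.56 and 4.98 against 22, 22.4 and 25.6 and, like Laptm5, passed the filter through DPP4_pos alone. Lymphocyte markers summed to 4.99 to 6.97 and 29 to 41.3, and none of 9 passed the filter. The part of these cells in the immune gene results was not tested.

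Vascular markers split within each list. Of 9 tested mural markers, 6 were called higher in FIP and 3 lower, with Des, desmin, at 261, 269.5 and 344 against 36, 27.3 and 33.9 (3.13 ± 0.18), and Abcc9 (-2.66 ± 0.15), Cspg4 (-2.09 ± 0.18) and Kcnj8 (-2.03 ± 0.25) lower. The sum was 5569 to 6003 in FIP and 3243 to 4396 in DPP4_pos. Of 10 endothelial markers, 7 were higher in FIP, among them Emcn (2.08 ± 0.29) and Tie1 (1.31 ± 0.27), and 1 lower, Kdr (VEGF receptor 2) at 322, 296 and 246 against 1400.4, 1532 and 1594 (-2.39 ± 0.22 (SE, adjusted p = 3e-09)). Emcn passed the filter through the FIP libraries alone and so had to differ, and among the other 9 markers 6 were higher and 1 lower. The sum of all 10 was 5711 to 6339 in FIP and 6454 to 7421 in DPP4_pos. Of 4 tested Schwann cell markers 1 was called, Mbp, lower in FIP (-1.27 ± 0.17). Skeletal muscle markers and ovary and reproductive tract markers had 2 tested members each, none of them called. The part of these markers in the results was not tested.

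The same contrast in males, which uses other libraries, shared much of the pattern. Of the 3039 genes higher in female FIP, 2284 (75.2%) were also called higher in male FIP, where they made up 52.7% of the genes called higher, and 2444 of the 3085 lower genes (79.2%) were called lower, 54.4% of the male calls. Of all 12828 tested genes, 4330 were called higher and 4491 lower in males. Genes that did not pass the filter on the 6 female libraries are not counted among the male calls. Another 370 genes were called in opposite directions. Across the 12828 genes, which are not independent replicates, the differences correlated at r = 0.710 and rho = 0.700. The difference between the sexes was itself called for 4858 genes (37.9%), 2736 with a higher value in females (21.3%) and 2122 with a lower one (16.5%). That excess of higher values was not seen with TMM factors (2407 and 2413), edgeR (2431 and 2430) or quantile normalization (2123 and 2113). Past 2-fold these were 665 (5.18%) and 771 (6.01%). Wt1 (7.08 in males, sex difference -0.8 ± 0.35 (adjusted p = 0.074)) was not called different between the sexes. Tbx15 and Irx1 were further apart in males, at -9.84 and -8.68, with sex differences of 4.44 ± 0.42 (adjusted p = 1.3e-08) and 2.83 ± 0.42 (adjusted p = 1.1e-05). Tbx15 stood at 35.4 ± 17 (SD, n = 3) in female FIP and 1.51 ± 1.14 in male FIP.

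Among posterior HOX genes the sexes differed on the gonadal side. Hoxa10 stood at 131 ± 8.53 (SD, n = 3 here and below) in female FIP and 1.5 ± 0.594 in male FIP, against 57.8 ± 5.08 and 36.5 ± 1.09 in female and male DPP4_pos. Hoxc10 stood at 262 ± 18.9 and 5.02 ± 2.62 in FIP, and 245 ± 37.4 and 221 ± 8.49 in DPP4_pos. The inguinal groups were thus alike in both genes to within 2-fold, and the sex difference of the contrast was 5.11 ± 0.5 (adjusted p = 2.1e-08) for Hoxa10 and 5.4 ± 0.35 (adjusted p = 2.4e-11) for Hoxc10. The difference was also called for Hoxa11os (7.09 ± 0.74 (adjusted p = 6.3e-08)) and Pitx1 (5.77 ± 0.63 (adjusted p = 1.3e-07)), the latter with 56.4 ± 5.83 in female and 0.865 ± 0.893 in male FIP. Hoxc8 went the other way, at 125 ± 13.6 in female and 729 ± 44.5 in male FIP, with a difference of -1.07 in females and 1.13 in males.

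Other genes with a large sex difference varied in which groups held their extremes. Cntn1 stood at 858 ± 7.43 in female FIP and 1.22 ± 1.46 in male FIP (6.83 ± 0.42 (adjusted p = 1.8e-11)). Cxcl5 stood at 5079 ± 237 in male DPP4_pos and 125 ± 24.9 in female DPP4_pos, with low values in both FIP groups (6.02 ± 0.34 (adjusted p = 4.2e-12)). Il18r1 stood at 331 ± 65.1 in male and 74 ± 10.1 in female DPP4_pos (5.27 ± 0.5 (adjusted p = 1.5e-08)). In FIP the order of Il18r1 was the reverse, with the lower value in males. Il33, Il1rl1 and Il1r2 had the same direction in both sexes, with male differences of -4.74, -8.33 and -7.83 that were more negative than the female ones (sex differences 2.6 ± 0.2 (adjusted p = 5.3e-10), 4.71 ± 0.3 (adjusted p = 2.2e-11) and 3.73 ± 0.24 (adjusted p = 2.2e-11)). On the negative side, Krt8 (-7.45 ± 0.58 (adjusted p = 5.3e-10)), Cldn4 (-6.24 ± 1.12 (adjusted p = 0.00011)) and Cldn11 (-5.36 ± 1.18 (adjusted p = 0.00093)) were epithelial or tight-junction genes with values of 1.14, 0.752 and 4.81 in male DPP4_pos, against 141, 127 and 411 in female DPP4_pos. Adamts19 was high in both female groups (374 ± 76.4 and 515 ± 171) and in male FIP (279.7 ± 14), but not in male DPP4_pos (10.9 ± 3.51). Greb1 was lower in female FIP than in female DPP4_pos and low in both male groups (4.89 ± 2.1 and 2.63 ± 1.72). Kdr changed direction, from -2.39 in females to 1.9 in males.

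**Figure D5:**
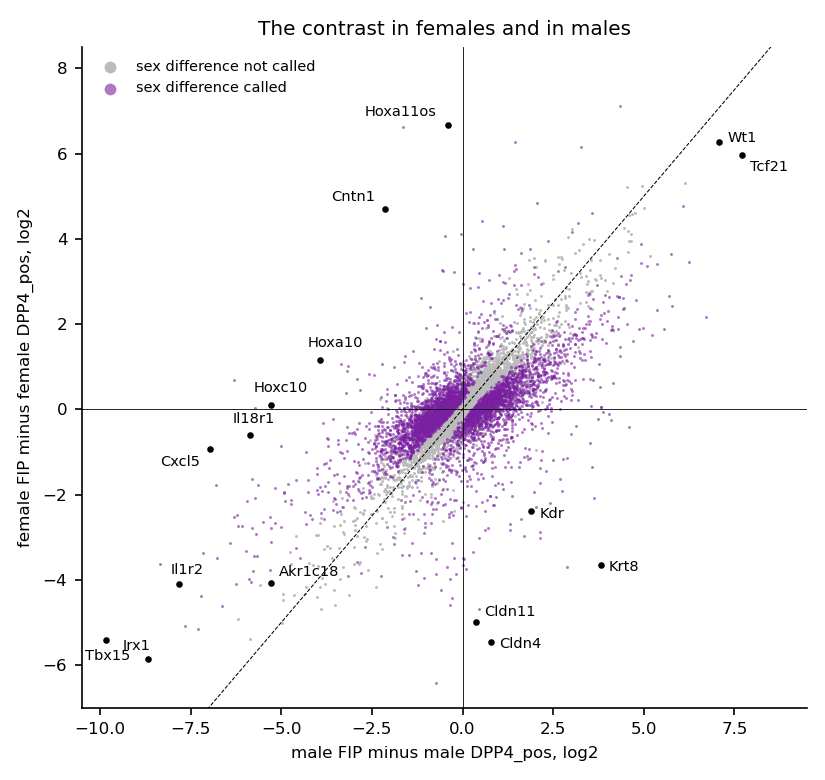
Difference between FIP and DPP4_pos in females (y axis, log2) against the same difference in males (x axis, log2), 1 point per tested gene, with genes whose sex difference was called in purple and the line of equal values dashed. Wt1 and Tcf21 lie near the line, Hoxa11os, Cntn1 and Hoxc10 above it and Krt8 and Cldn4 below it.

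The other female depot contrast, gonadal APC against inguinal DPP4_neg, shows which of the depot differences recurred in other female populations. It shares no library with the FIP and DPP4_pos contrast. Of the genes higher in FIP, 1778 (58.5%) were also higher in APC, 48.4% of the genes higher there, and 2117 of the lower genes (68.6%) were also lower, 52.1% of those. Of all 12828 tested genes, 3674 were called higher and 4065 lower in APC than in DPP4_neg. The difference between the contrasts was called for 4557 genes (35.5%), 2610 higher (20.3%) and 1947 lower (15.2%), or 944 (7.36%) and 465 (3.62%) past 2-fold, and 558 genes were called in opposite directions. Under quantile normalization 2483 were higher and 2593 lower. For 4 leading patterning genes no difference between the contrasts was called, Wt1 with 6.04 in APC against DPP4_neg (difference of the contrasts 0.24 ± 0.35 (adjusted p = 0.63)), Tcf21 with 6.32 (-0.35 ± 0.56 (adjusted p = 0.66)), Tbx15 with -5.8 (0.4 ± 0.42 (adjusted p = 0.49)) and En1 with -4.69 (0.08 ± 0.47 (adjusted p = 0.91)), although a p that misses the threshold does not show equality.

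Other genes differed between the contrasts. Cntn1 and Lrrn2 were higher in FIP by 4.7 and 4.77 but by 0.47 and 0.53 in APC, and the differences of the contrasts were 4.23 ± 0.42 (adjusted p = 3.3e-08) and 4.24 ± 0.43 (adjusted p = 3.8e-08). Rdh10 did likewise, with -0.08 in APC (2.13 ± 0.13 (adjusted p = 6.6e-12)). Dact2 and Gli1 changed direction, from 1.47 and 2.22 to -1.63 and -1.96 (3.11 ± 0.23 (adjusted p = 3.3e-10) and 4.19 ± 0.32 (adjusted p = 4.9e-10)). Sparcl1 was higher in both, by 3.64 and 1.21 (2.42 ± 0.19 (adjusted p = 5.2e-10)). The interferon genes Ifit3 (-2.1 ± 0.38 (adjusted p = 0.0001)) and Bst2 (-1.23 ± 0.23 (adjusted p = 0.00016)) and the MHC gene H2-K1 (-1.33 ± 0.12 (adjusted p = 1.2e-08)) had smaller or opposite differences between APC and DPP4_neg, at -0.36, -0.74 and 0.32.

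The largest differences of the contrasts were Dsp (desmoplakin, 7.3 ± 0.66 (adjusted p = 6.9e-09)), Gfra2, a receptor for neurturin (6.32 ± 0.44 (adjusted p = 1.3e-10)), Nectin4 (6.13 ± 0.53 (adjusted p = 3.1e-09)), Ptn (5.1 ± 0.45 (adjusted p = 4e-09)), Cldn3 (5.02 ± 0.68 (adjusted p = 3.2e-06)) and Scube1 (5.0 ± 0.8 (adjusted p = 2.7e-05)). All 6 had their highest female mean in DPP4_neg, where the epithelial gene Krt8 stood at 4567 ± 2011 and Cldn4 at 3304 ± 1564, and the part of epithelial cells was not tested. Within FIP, Dsp stood at 100.5 ± 7.88 and Gfra2 at 287 ± 14.3, above DPP4_pos at 22.8 ± 9.9 and 72.3 ± 12.6. On the other side, Trdn (-5.3 ± 0.68 (adjusted p = 1.5e-06)), Akr1c19 (-3.51 ± 0.6 (adjusted p = 6.7e-05)) and Pgf, placental growth factor (-3.28 ± 0.38 (adjusted p = 2.7e-07)), had their highest female mean in DPP4_pos, and Eef1a2 in APC (-3.51 ± 0.58 (adjusted p = 3.7e-05)). Bmp4 was lower in FIP than in DPP4_pos (-1.69) and higher in APC than in DPP4_neg (1.6), with a difference of the contrasts of -3.29 ± 0.22 (adjusted p = 4.8e-11).

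Promoters of the called genes were described by 4 short motifs on both strands. The TATA box TATAAA stood in 863 of 9965 promoters of tested genes (8.66%), in 77 of 619 for genes higher in FIP past 2-fold (12.4%) and in 95 of 561 for lower ones (16.9%). The GC box GGGCGG stood in 69.4% of all, 61.7% of the higher and 58.5% of the lower genes. CCAAT stood in 42.7%, 41.4% and 39.9%, and the E-box CAGCTG, a sequence that Tcf21 and other basic helix-loop-helix factors can bind, in 17.9%, 23.9% and 21.6%. These shares were not tested.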

How the data were processed

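RNA from PDGFRb-positive cells was sequenced, and the authors deposited 1 table of normalized values, gene by library, a signal that matches counts divided by size factors. Per the submitters' processing notes, reads were handled with DESeq2 1.6.3, featureCounts 1.4.6, HISAT2 2.0.1 and Trim Galore 0.4.1, which are listed there with GRCm38 and mm10; the strand setting is not given in the sources used here. All low values were whole multiples of 1 step per library within 0.01 (100% of values), so whole reads were recovered, and depth is their sum. In 3 columns, including FIP replicate 3 and DPP4_pos replicate 1, that step is near 1.

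Genes reaching 10 in 3 or more of the 6 libraries were tested on log2(value + 1) with limma 3.58.1 (R 4.3.3, trend, 1 mean per group over all 24 libraries, Benjamini-Hochberg). The sex and subpopulation differences are interaction contrasts of that fit. The alternatives were edgeR 4.0.16 and DESeq2 1.42.0 on recovered reads, TMM factors, quantile normalization, pseudocounts of 0.5 and 10, no filter, only the libraries compared, a replicate block and each library left out. The limma script was checked on simulated data. Of the tested genes, 98.4% matched RefSeq GRCm38.p6 by gene ID, and coordinates are from there. Named genes were called, not overlapping and at a mean of 100 or more (12 each way), the 4 most changed called members of each list, all tested members of 6 lists, and the 6 most extreme each way for each interaction. Members and lists were chosen with earlier results of these data known. Some named genes are not reported here. Intervals cover counting error only.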

Additional observations from a re-analysis of the deposited data

Results flagged for a closer look

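The contrast differed between the sexes, by a test of the difference itself in limma (log2, females minus males), for 12 genes with the largest values. The signed difference was positive for Hoxa11os (7.09), Cntn1 (6.83), Cxcl5 (6.02), Hoxc10 (5.40), Il18r1 (5.27) and Hoxa10 (5.11), and negative for Krt8 (-7.45), Cldn4 (-6.24), Cldn11 (-5.36), Celf4 (-5.16), Adamts19 (-5.01) and Cacna1g (-4.93). A positive value includes genes whose contrast was more negative in males, such as Cxcl5 (-0.94 in females and -6.95 in males), Hoxc10 (0.11 in females and -5.29 in males), Il18r1 (-0.61 in females and -5.87 in males) and Hoxa10 (1.17 in females and -3.94 in males), and a negative value genes whose contrast was more negative in females, such as Cldn4 (-5.46 in females and 0.78 in males) and Cldn11 (-5.00 in females and 0.36 in males). The value of Cldn4 missed the threshold with edgeR (adjusted p = 0.059).

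The depot contrast differed between the 2 pairs of female groups, by the same kind of test, for genes with the largest values (FIP and DPP4_pos minus APC and DPP4_neg). The signed difference was positive for Dsp (7.30), Gfra2 (6.32), Nectin4 (6.13), Ptn (5.10), Cldn3 (5.02) and Scube1 (5.0), and negative for Trdn (-5.30), Eef1a2 (-3.51), Akr1c19 (-3.51), Bmp4 (-3.29) and Pgf (-3.28). Eef1a2 missed the threshold with edgeR (adjusted p = 0.061).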

How the results depend on the processing

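The counts of genes called higher and lower in FIP (3039 and 3085) were 3000 and 3057 with a replicate block, 3223 and 3092 with edgeR, 3002 and 3095 with DESeq2, and 3197 and 2842 under quantile normalization. With each library of the 2 groups left out in turn they ranged from 2636 to 2782 and from 2716 to 2813. The counts for both differences between contrasts stayed within 1.5 times under every alternative, except 2 of the subpopulation difference: 944 genes higher past 2-fold became 1517 with no filter on low values, and 465 lower past 2-fold became 722 under quantile normalization; the cause was not tested. Same-numbered libraries did not deviate together (r = 0.058, -0.11 and -0.087), and not every library correlated best with its own number. The deviations are taken from means of only 3 libraries, so these values cannot exclude that same-numbered libraries share animals. The median of the protease list turned to 0.0058 under quantile normalization and that of the neurotrophic list ranged from -0.18 (without DPP4_pos replicate 2) to 0.53 with 1 library left out. Of 279 named genes, 259 were called; 17 lost the call under at least 1 alternative, 8 uncalled genes gained one, and none reversed. Counts over gene lists that moved by more than 1.5 times stand beside those lists, apart from changes of a single gene. With 3 libraries a side and up to 18221692 reads, genes with few reads have wide intervals.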
